A study of Mus musculus with 10 samples.

Results

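The matrix proteases and their inhibitors were taken as the genes whose symbol is Mmp, Adamts or Timp followed by a number, which gave 46 of the 55487 genes in the deposited table. They comprised 23 genes of the matrix metalloproteinases (MMPs), 19 of the ADAMTS proteases and 4 of the tissue inhibitors of metalloproteinases (TIMPs). They were picked by name and not by their values, although earlier results of these data were known. Their reads were followed in 10 mouse ovaries of C57BL/6J background, each sequenced as a library of its own. The Control group (n = 4) was 8 weeks old, the Aged group (n = 3) was 11 months old by the sample labels, and the Aged+CF group (n = 3) was of the same age and had been given 200 µL of CEFFE at 3 µg/µL. CEFFE is a cell-free protein extract of fat tissue, injected into the tail vein every other day for a fortnight, and by the study's methods the Control and Aged mice had saline in its place. All mice, young and aged, had also received 10 IU of PMSG, a gonadotropin that makes follicles grow, 48 h before the ovaries were taken, so no ovary was unstimulated. The same methods give a lower age at purchase than the labels give for the Aged mice.

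MMPs and ADAMTS enzymes are zinc proteases that cut collagens, proteoglycans and other proteins outside the cell, and most are made as inactive precursors. TIMPs bind the active site of MMPs, and Timp3 also blocks several ADAMTS enzymes. In the ovary these proteins are known for rebuilding the follicle wall and stroma as follicles grow, rupture and turn into corpora lutea, and for clearing matrix when follicles and corpora lutea regress. RNA levels do not report the activity of the enzymes, since precursors, activation and inhibition are not seen in reads.

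The libraries held 15761789 to 21318254 reads on genes, and the 46 genes took 0.167% to 0.279% of them, with the lowest share in Aged ovary 33. Marker genes of granulosa cells and of oocytes were read in all 10 ovaries, except that the oocyte marker Figla had 0 CPM in Aged ovary 33. The summed level of 12 oocyte markers was 453 to 626 CPM for Control, 15.4 to 128 CPM for Aged and 169 to 272 CPM for Aged+CF. A pair of Aged ovaries stood apart from the rest, in opposite ways. Aged ovary 34 had the highest sums of macrophage markers (2489.9 CPM) and of T and B cell markers (184 CPM, of which Jchain alone had 152 CPM). It had the lowest sum of oocyte markers (15.4 CPM), and its oviduct markers reached 329 CPM. Aged ovary 33 had the lowest sum of fibroblast and stroma markers (1991 CPM) and the highest of theca markers (20413 CPM). Most of that theca sum was Cyp11a1 (13665 CPM) and Star (6510 CPM). The other theca markers, Cyp17a1 (146 CPM), Ptch1 (84.8 CPM) and Hhip (7.62 CPM), were not highest in this ovary. Its sum of luteal markers was also the highest (16628 CPM). Oviduct markers were also high in Control ovary 33, at 415 CPM, against 12.0 to 43.6 CPM in the 8 ovaries other than these. CPM is the normalized read count, scaled to the library size after TMM. In whole ovaries, fewer cells of a type and less RNA per cell cannot be told apart.

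Of the 46 genes, 36 had enough reads to be tested, 14 of the MMPs, 18 of the ADAMTS genes and all 4 TIMPs. Levels can be compared between genes only per length, for which the FPKM values deposited by the authors were used. The TIMPs led: Timp2 had the highest mean level over the groups, 109.7 FPKM, and Timp1 and Timp3 followed with 48.9 and 45.8 FPKM. Over the 10 ovaries Timp2 ran from 65.7 to 176 FPKM, Timp1 from 24.8 to 83.0 FPKM and Timp3 from 32.3 to 57.1 FPKM. Timp2 lay above Timp3 without overlap, while the range of Timp1 overlapped both, so the order of Timp1 and Timp3 is within their spread. The most abundant proteases were Mmp11, a stromelysin that leaves the cell already active (42.6 FPKM), the gelatinase Mmp2 (34.2 FPKM), the procollagen-trimming Adamts2 (28.5 FPKM) and the membrane-bound Mmp14 (26.5 FPKM). Mmp14 is the known activator of the Mmp2 precursor, in a complex that holds Timp2, so the genes of that trio were all among the 7 highest. Below them came Mmp15, Mmp23, Adamts10 and Adamts1, between 10.6 and 14.5 FPKM, and 13 of the 36 tested genes had means under 1 FPKM. The plot of levels by gene shows a range from Timp2 down to Adamts18 at 0.0284 FPKM.

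**Figure D1:**
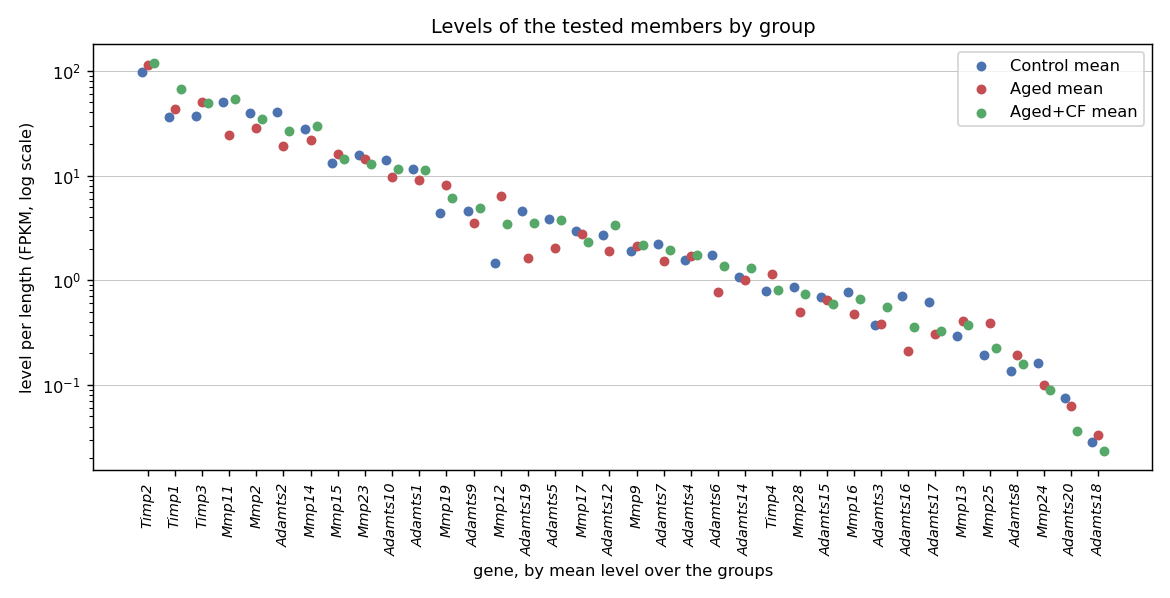
Mean level per length (deposited FPKM, log scale) of the 36 tested genes in the Control (n = 4), Aged (n = 3) and Aged+CF (n = 3) ovaries, ordered by their mean over the groups. The TIMPs Timp2, Timp1 and Timp3 lead with means of 109.7, 48.9 and 45.8 FPKM, and the Aged mean is the lowest of the 3 groups for Mmp11, Adamts2, Adamts19 and Adamts16 and the highest for Mmp12.

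Summed over each class, the ADAMTS genes were lowest in the Aged ovaries, while the MMP sums overlapped between all groups. The ADAMTS sum was 91.7, 96.2, 86.8 and 87.9 FPKM in the Control ovaries, 60.3, 42.4 and 58.1 FPKM in the Aged ovaries and 77.0, 64.7 and 78.0 FPKM in the Aged+CF ovaries. The groups did not overlap, with Aged lowest and Aged+CF between Aged and Control. Adamts2 and Adamts10 made up the larger share of that sum in every group, so it describes those genes more than the rest. The MMP sum was 159 ± 6.15 FPKM for Control, 128 ± 43.1 FPKM for Aged and 162 ± 16.9 FPKM for Aged+CF, and the Aged ovaries ranged from 79.7 FPKM in ovary 33 to 163 FPKM in ovary 34. The TIMP sum was 172 ± 21.5 FPKM for Control, 209 ± 41.3 FPKM for Aged and 236 ± 28.4 FPKM for Aged+CF, where every ovary was above every Control ovary. Within an ovary, TIMP over MMP reads per length came to 1.18, 0.945, 1.12 and 1.05 for Control, 1.38, 2.21 and 1.57 for Aged and 1.35, 1.78 and 1.26 for Aged+CF. Every aged ovary, treated or not, had a higher ratio than every Control ovary, and the highest was Aged ovary 33, whose MMP sum was the lowest. These sums were not tested, since they are scores over genes chosen with results known, and FPKM here are scaled to total reads and not by TMM.

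**Figure D2:**
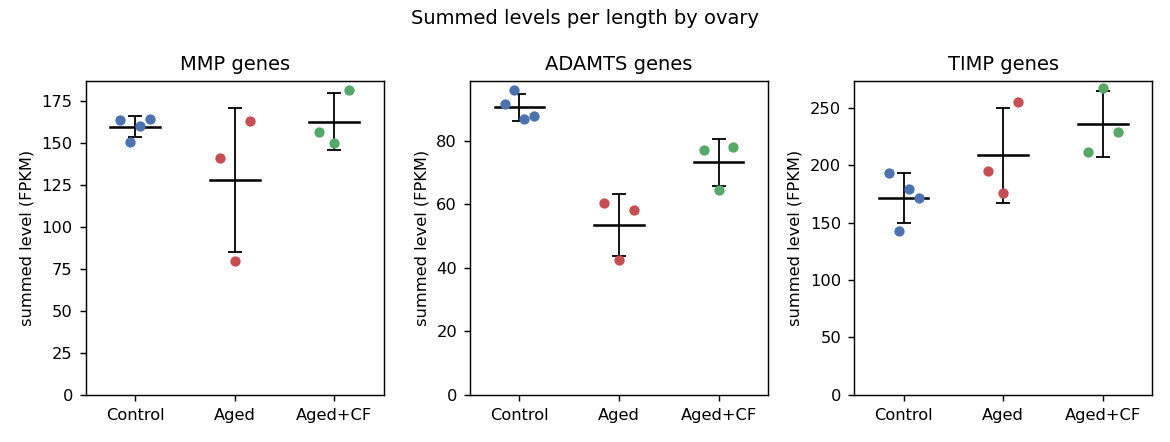
Summed level per length (deposited FPKM) of the MMP, ADAMTS and TIMP genes in each ovary, as points, with the mean as a line and 1 SD as a bar for Control (n = 4), Aged (n = 3) and Aged+CF (n = 3). The ADAMTS sums of the 3 Aged ovaries, 42.4 to 60.3 FPKM, lie below those of all other ovaries, while the MMP sums of Aged spread from 79.7 to 163 FPKM.

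Aged vs Control asks which of these genes differ between the older and the young ovary. With edgeR's quasi-likelihood test, a change of 1.5-fold or more and a Benjamini-Hochberg adjusted p under 0.05 over the 18956 genes tested, 1 member rose in Aged, Mmp12, and 4 fell, Mmp11, Adamts2, Adamts16 and Adamts19. Among all genes tested the same rule called 5.00% higher and 6.06% lower, against 1 and 4 of 36 here (2.78% and 11.1%). DESeq2's Wald test called 8 members in either direction at adjusted p, beside 14.6% of the 18894 genes it gave an adjusted p. At unadjusted p edgeR's counts were 2 higher and 5 lower, adding Mmp19 and Adamts6, beside 8.79% and 9.44% of all genes. The Aged and Control ovaries did not overlap for 3 members that were higher (Mmp12, Mmp19, Timp3) and 6 that were lower (Adamts2, Adamts7, Adamts10, Adamts16, Adamts19, Mmp11), beside 11.8% and 15.6% of all genes tested. Median log2 fold changes were 0.02 for the 14 MMPs, -0.34 for the 18 ADAMTS genes, of which 12 were below 0, and 0.50 for the 4 TIMPs, all above 0. The median was -0.06 over the 36 members and -0.0005 over all genes tested.

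**Figure D3:**
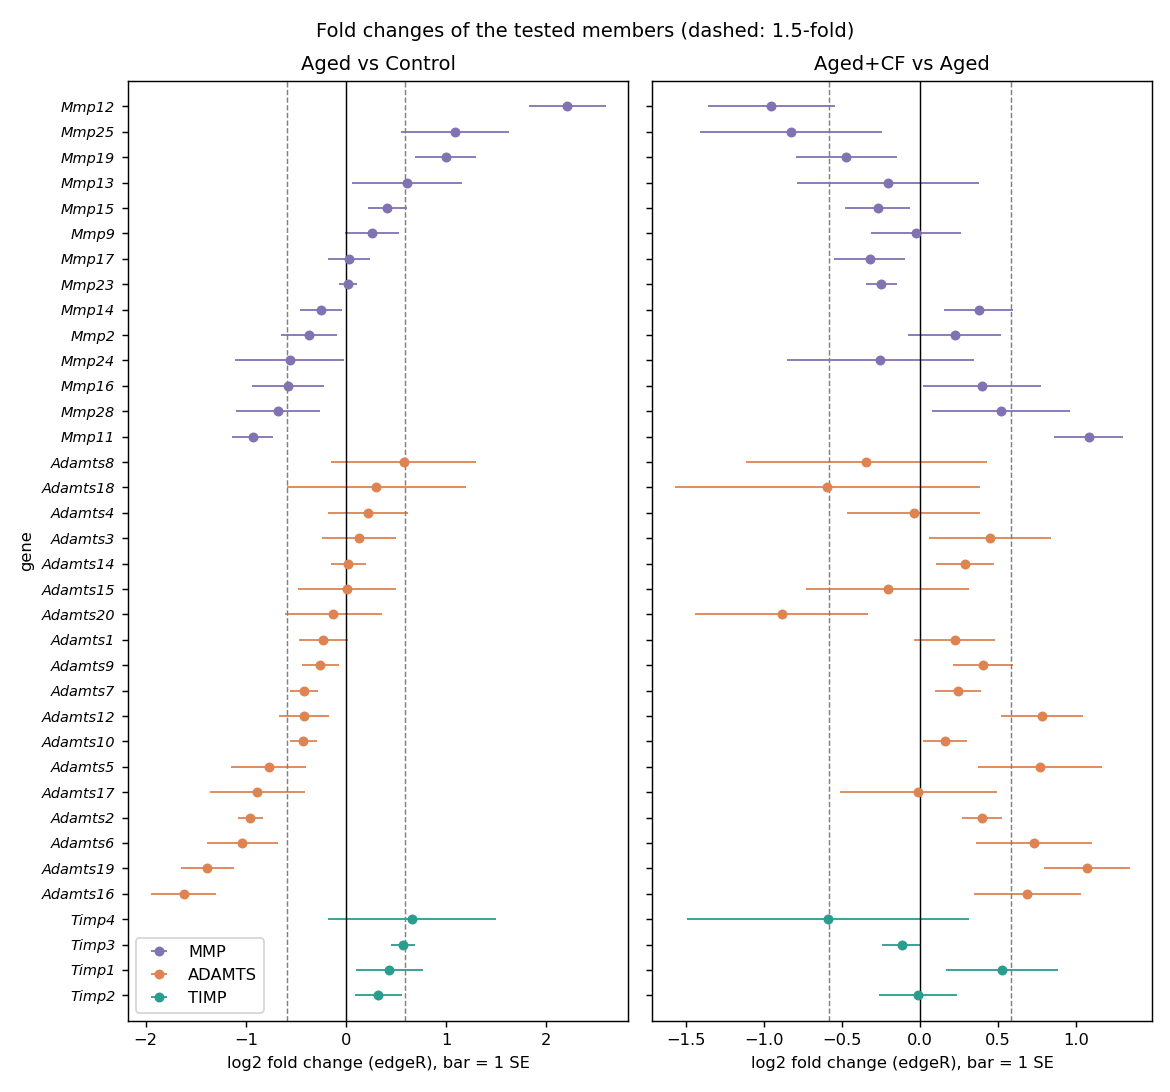
Log2 fold changes (points) with 1 SE (bars) from edgeR for the 36 tested genes in Aged vs Control (left) and Aged+CF vs Aged (right), grouped by class and ordered by the left panel, with dashed lines at a 1.5-fold change. Mmp12 lies farthest to the right at 2.21 and Adamts16 farthest to the left at -1.62 in the left panel, and Mmp11 and Adamts19 change side between the panels.

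Mmp12 (ENSMUSG00000049723, chr9:7344381-7369499, plus strand on GRCm38) encodes the macrophage metalloelastase, a protease that cuts elastin and is known from macrophages. It had 15.4, 10.2, 14.3 and 16.8 CPM in the Control ovaries, 43.0, 37.0 and 116 CPM in the Aged ovaries and 25.8, 45.1 and 30.7 CPM in the Aged+CF ovaries. Every Aged ovary was above every Control ovary, and Aged ovary 34 was far above the other two Aged ovaries. The means were 14.2 ± 2.83 CPM and 65.5 ± 44.2 CPM, a log2 fold change, with its standard error (SE), of 2.21 (SE 0.38, 4.62-fold, edgeR adjusted p = 0.00866). Without Aged ovary 34 the log2 fold change was 1.53 (edgeR adjusted p = 0.00381), still past both thresholds. Macrophage markers moved with it. Their sum over 12 genes was 640.4 to 759 CPM for Control, 1135 to 2489.9 CPM for Aged and 995 to 1163 CPM for Aged+CF, none of them was at 0 in all ovaries, and 5 of 12 rose in Aged with edgeR's adjusted p, among them Gpnmb, Lyz2 and Ctss. The receptor gene Csf1r and Adgre1, which encodes F4/80, were under the fold threshold, with log2 fold changes of 0.50 and 0.51. T and B cell markers moved in the same ovaries, with sums of 4.45 to 6.73 CPM for Control, 9.10 to 184 CPM for Aged and 6.94 to 8.90 CPM for Aged+CF, and 5 of 6 rose in Aged with edgeR's adjusted p. The part of macrophages and lymphocytes in the Mmp12 result was not tested.

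Mmp19, a secreted MMP that cuts basement membrane proteins, had 21.0, 15.1, 23.9 and 23.3 CPM in the Control ovaries, 30.6, 26.7 and 67.1 CPM in the Aged ovaries and 26.9, 34.9 and 27.9 CPM in the Aged+CF ovaries. The Aged ovaries lay above the Control ovaries here too, again with ovary 34 the highest. Its log2 fold change of 0.99 (SE 0.30) passed at unadjusted p (0.00784) and just missed with edgeR's adjusted p (0.0504). Without Aged ovary 34 it was 0.49, below the fold threshold. Mmp25, a membrane-anchored MMP known from leukocytes, had the same ovary highest, at 8.99 CPM against 1.47 to 2.98 CPM in the other 9 ovaries, and was not called.

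Mmp12 lies in a cluster of 10 MMP genes within 427 kb of chromosome 9 (chr9:7272514-7699585 on GRCm38, GENCODE M21), which holds the 4 collagenase genes (Mmp1a, Mmp1b, Mmp8, Mmp13) and 8 of the 10 members that were too low to test. Mmp1a is annotated there as a polymorphic pseudogene. Only Mmp12 and Mmp13 of the 10 passed the filter on low counts. Over all 10 ovaries Mmp12 had 6276 reads and Mmp13 had 167, while Mmp3, Mmp27, Mmp7, Mmp8 and Mmp10 had 68, 67, 53, 50 and 18, Mmp1b had 1, and Mmp1a and Mmp20 had none. A count of 0 in an ovary allows up to 0.141 to 0.212 CPM, for counting error only. Mmp1b and Mmp12 overlap on opposite strands, and the strand setting of the counting is not given in the sources used here, so reads of the overlap cannot be assigned to either with certainty. Of the reads on Mmp7, the matrilysin of epithelial cells, 49 of 53 came from Aged ovary 34, which also had 329 CPM of oviduct markers, although Control ovary 33 had 415 CPM of those markers and no read on Mmp7. Outside the cluster, Mmp21 and Adamts13 were the remaining members too low to test, with at most 4 and 11 reads in an ovary.

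**Figure D4:**
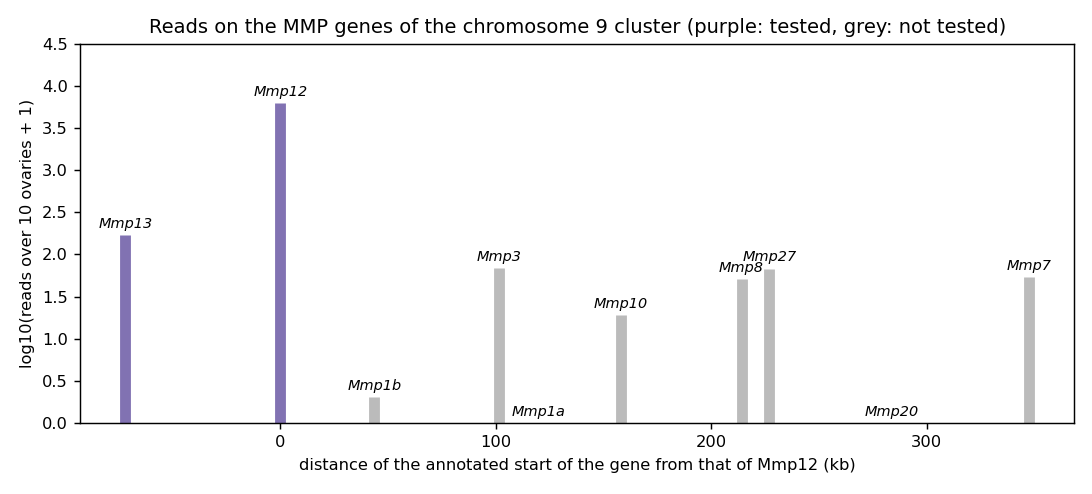
Reads on the 10 MMP genes of the chromosome 9 cluster, summed over all 10 ovaries and drawn as log10(reads + 1), against the distance of each gene's annotated start from that of Mmp12 in kb. Mmp12, with 6276 reads, stands far above its neighbours, of which Mmp13 has 167 and the other 8 have 0 to 68.

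Most of the cluster genes have both of a pair of short motifs in a window around their starts, although they differ by orders of magnitude in reads. RefSeq promoter windows (250 bases before to 50 after a start, GRCm38.p6) matched 32 of the 46 members, in 35 windows. The members without a window all lie outside the cluster, and the motifs were not searched in them. Among these are Mmp2, Mmp9, Mmp19, Adamts4, Adamts5, Adamts16 and Adamts19. The heptamer TGANTCA, the AP-1 type site whose reverse complement has the same form, was found in 8 of the 10 cluster genes and in 0 of the 22 other members with a window, beside 8.97% of all 27025 genes with a window. TATAAA, searched on both strands as well, was found in 9 of the 10 cluster genes and in 2 of the 22 other members (Adamts1 and Mmp21), beside 15.7% of all genes. Both motifs were found in 8 of the 10 and in 0 of the 22, beside 1.84%. Mmp8 had only TATAAA and Mmp27 had neither. The stretches that hold both are printed because they run from the AP-1 type letters to the TATA letters in the abundant Mmp12 as in the unread Mmp1a and Mmp20. Capitals mark the motifs, 5′ to 3′ on the strand of the gene.
Mmp12: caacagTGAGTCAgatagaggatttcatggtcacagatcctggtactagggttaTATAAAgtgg
Mmp13: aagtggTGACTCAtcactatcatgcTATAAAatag
Mmp3: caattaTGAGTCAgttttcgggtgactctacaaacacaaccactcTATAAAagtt
Mmp10: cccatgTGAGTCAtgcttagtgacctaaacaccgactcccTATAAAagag
Mmp7: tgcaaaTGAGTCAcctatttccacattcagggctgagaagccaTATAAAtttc
Mmp1a: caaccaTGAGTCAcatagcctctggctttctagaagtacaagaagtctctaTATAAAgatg
Mmp1b: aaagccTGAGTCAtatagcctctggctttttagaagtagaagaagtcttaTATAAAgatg
Mmp20: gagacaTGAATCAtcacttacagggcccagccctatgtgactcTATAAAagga
They lie at chr9:7347324-7347387 for Mmp12, chr9:7272473-7272507 for Mmp13, chr9:7445770-7445824 for Mmp3, chr9:7502273-7502322 for Mmp10, chr9:7692021-7692073 for Mmp7, chr9:7464062-7464122 for Mmp1a, chr9:7388066-7388125 for Mmp1b (minus strand) and chr9:7628130-7628182 for Mmp20. In Mmp12 the AP-1 type letters begin at -44 from the RefSeq start and 41 bases lie between the motifs. Its TATAAA therefore lies after that start and not before it. Mmp12 has a further RefSeq start upstream, whose window held neither motif. A match is a description of letters and does not show that a factor binds there, and the reads give no start site.

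Mmp11 (ENSMUSG00000000901, chr10:75923222-75936496, minus strand), stromelysin 3, which is cut to its active form inside the cell by furin-like enzymes, had 206, 215, 187 and 229 CPM in the Control ovaries, 146, 75.6 and 108 CPM in the Aged ovaries and 225, 192 and 278 CPM in the Aged+CF ovaries. All 3 Aged ovaries were below all other ovaries. The means were 209 ± 17.6 CPM in Control and 109.6 ± 35.0 CPM in Aged, a log2 difference of -0.93 (SE 0.21, 1.91-fold lower, edgeR adjusted p = 0.0181). Without Aged ovary 33, the lowest, it was -0.69. Without Control ovary 34 the edgeR adjusted p was 0.051 and the call was lost. The gene overlaps Chchd10 on the opposite strand.

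The gelatinases and Mmp14, which are the MMPs most often described in tissue remodelling, did not pass in any comparison with all ovaries in the fit. Mmp2, which cuts denatured and basement membrane collagen, had 167, 176, 178 and 192 CPM in the Control ovaries, 149.9, 68.9 and 196 CPM in the Aged ovaries and 145, 146 and 192 CPM in the Aged+CF ovaries. The Control ovaries were close together and the Aged ovaries spread on both sides of them, with ovary 33 the lowest. Mmp14, the membrane-type MMP that activates the Mmp2 precursor, had 234, 195, 228 and 216 CPM in the Control ovaries, 206, 113 and 232 CPM in the Aged ovaries and 215, 241 and 260.1 CPM in the Aged+CF ovaries, with the same ovary lowest. Log2 fold changes in Aged vs Control were -0.37 (SE 0.28) for Mmp2 and -0.25 (0.21) for Mmp14, and without Aged ovary 33 they were -0.02 and 0.03. Without Aged ovary 34, Mmp2 was at -0.67 and past the fold threshold at unadjusted p (0.0288, edgeR adjusted p = 0.0949). Mmp9, the gelatinase of leukocytes and remodelling tissue, had 7.35, 6.55, 7.40 and 7.95 CPM in the Control ovaries, 6.74, 5.86 and 13.6 CPM in the Aged ovaries and 7.74, 7.93 and 10.1 CPM in the Aged+CF ovaries. Aged ovary 34 was again the highest, and the log2 fold change of 0.26 (SE 0.27) turned to -0.18 without it. Among the remaining tested MMPs, fold changes in Aged vs Control ran from -0.68 (log2) for Mmp28, an MMP of epithelia, to 0.61 for the collagenase Mmp13, apart from Mmp25 at 1.09, and none passed. Mmp23 had 53.8 ± 3.23 CPM for Control, 54.5 ± 5.52 CPM for Aged and 45.9 ± 1.85 CPM for Aged+CF, and every Aged+CF ovary was below all Control and all Aged ovaries. The log2 differences of Aged+CF were -0.25 from Aged and -0.23 from Control, under the fold threshold, with unadjusted p of 0.0336 and 0.0361 and edgeR adjusted p of 0.27 and 0.317.

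**Figure D5:**
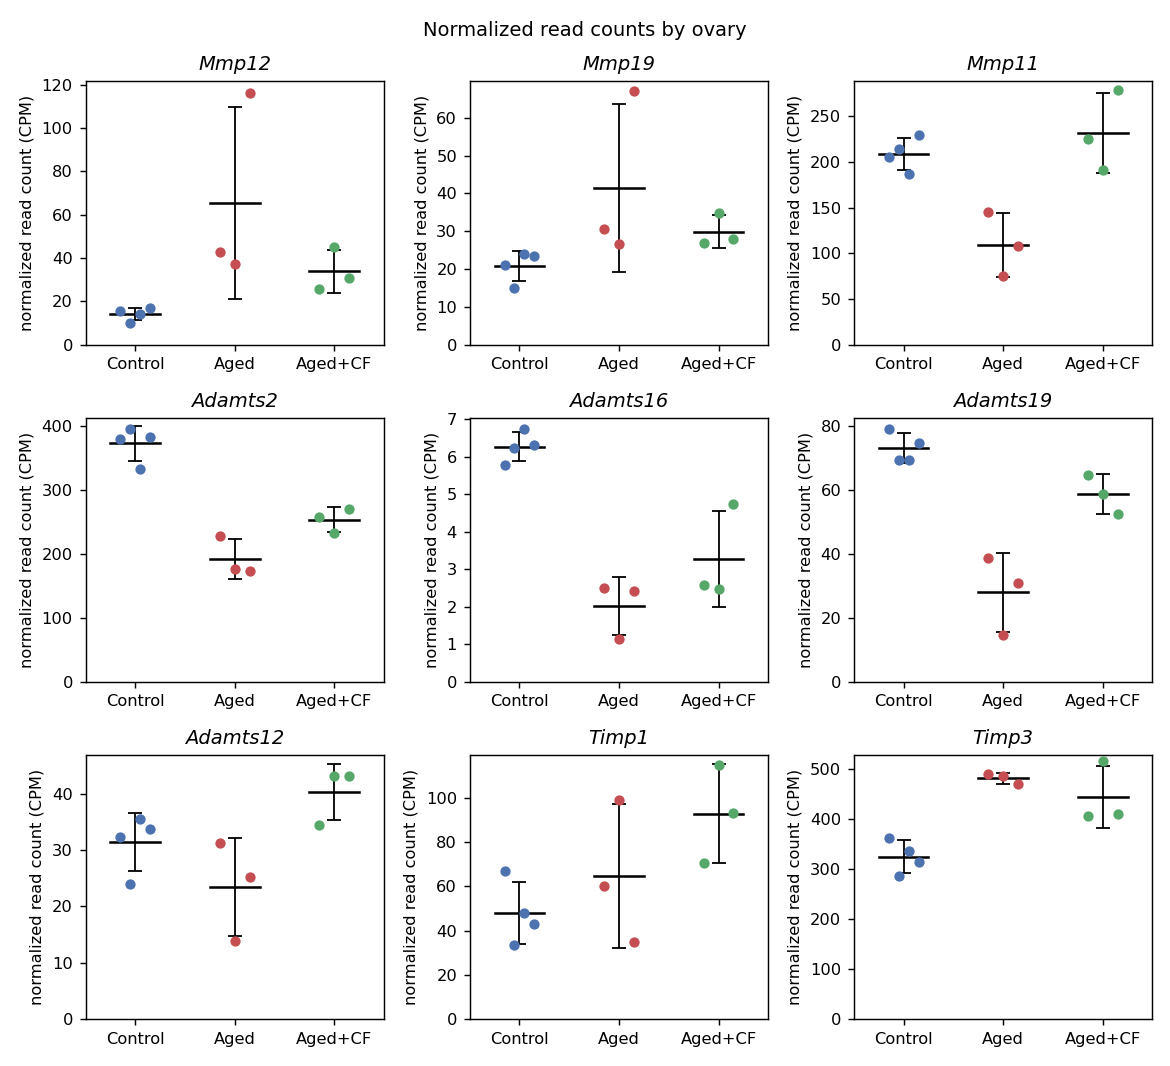
Normalized read counts (CPM) of 9 genes in each ovary, as points, with the mean as a line and 1 SD as a bar for Control (n = 4), Aged (n = 3) and Aged+CF (n = 3). Aged lies below Control without overlap for Mmp11, Adamts2, Adamts16 and Adamts19 and above it for Mmp12, Mmp19 and Timp3, and a single Aged ovary (34) carries the highest points of Mmp12 and Mmp19.

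Among the ADAMTS genes the falls in Aged were in a procollagen-trimming enzyme and in members of less known targets, while the proteoglycan-cutting enzymes did not pass. Adamts2 (ENSMUSG00000036545, chr11:50602084-50807573, plus strand) removes the amino-terminal propeptide of fibrillar procollagens. It had 379.7, 396, 334 and 384 CPM in the Control ovaries, 228, 176 and 173 CPM in the Aged ovaries and 257, 233 and 271 CPM in the Aged+CF ovaries. The groups formed separate bands, with Control highest and Aged lowest, and every ovary fell in its own group's band. Adamts2 fell from 373 ± 27.3 CPM to 192 ± 31.1 CPM, a log2 difference of -0.96 (SE 0.12, 1.94-fold lower, edgeR adjusted p = 0.00417). The enzymes with the same role, Adamts14 and Adamts3, were far lower in reads per length and did not pass, with log2 fold changes of 0.02 (SE 0.17) and 0.13 (0.37). Fibroblast and stroma markers, which include collagen genes, summed to 3932 to 4710.4 CPM for Control, 1991 to 5739 CPM for Aged and 4037 to 4985 CPM for Aged+CF, and 0 of 8 passed by edgeR at either p.

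Adamts19 (ENSMUSG00000053441, chr18:58836667-59054060, plus strand), an enzyme described in the developing gonad, had 79.1, 69.3, 69.3 and 74.5 CPM in the Control ovaries, 38.5, 14.5 and 30.7 CPM in the Aged ovaries and 64.7, 58.8 and 52.5 CPM in the Aged+CF ovaries. Both aged groups were below all Control ovaries, and the Aged ovaries were below the Aged+CF ovaries. The log2 fold change in Aged vs Control was -1.39 (SE 0.26, 2.61-fold lower, edgeR adjusted p = 0.0113), and -1.05 without Aged ovary 33, the lowest. Adamts16 (ENSMUSG00000049538, chr13:70727802-70841811, minus strand) is a gene of low level known from ovary, testis and kidney. It had 5.78, 6.23, 6.74 and 6.31 CPM in the Control ovaries, 2.51, 1.13 and 2.43 CPM in the Aged ovaries and 2.58, 2.47 and 4.73 CPM in the Aged+CF ovaries. The Control ovaries were within 1 CPM of each other, and all Aged and Aged+CF ovaries were below them. Its fall in Aged was the largest of the members, -1.62 on the log2 scale (SE 0.33, 3.08-fold, edgeR adjusted p = 0.0134). The gene overlaps Gm36607 and Gm36529 on the opposite strand. Oocyte markers fell in the same ovaries, 11 of 12 with edgeR's adjusted p, and granulosa markers, with sums of 4318 to 7224 CPM for Control, 3223 to 3790.0 CPM for Aged and 2379 to 4145 CPM for Aged+CF, had 4 of 8 lower at unadjusted p and 0 at adjusted p. None of these markers was at 0 in all ovaries, and their part in the falls was not tested.

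The proteoglycanases are the ADAMTS enzymes best known in the ovary, since they cut versican, a large proteoglycan of the follicle and cumulus matrix. Adamts1, which rises before ovulation under the progesterone receptor, had 51.6, 110.0, 66.6 and 53.0 CPM in the Control ovaries, 55.1, 60.7 and 64.5 CPM in the Aged ovaries and 76.3, 59.1 and 74.8 CPM in the Aged+CF ovaries. The Aged and Aged+CF ovaries lay within the range of the Control ovaries, of which ovary 32 was highest. Adamts4 had 13.8, 11.8, 13.3 and 9.97 CPM in the Control ovaries, 9.07, 7.76 and 25.9 CPM in the Aged ovaries and 11.8, 10.2 and 19.6 CPM in the Aged+CF ovaries, with Aged ovary 34 the highest and the other two Aged ovaries below all other ovaries. Adamts5 had 47.6, 35.5, 44.5 and 31.8 CPM in the Control ovaries, 32.9, 23.1 and 14.1 CPM in the Aged ovaries and 49.3, 18.1 and 52.1 CPM in the Aged+CF ovaries, and its groups overlapped. Log2 fold changes in Aged vs Control were -0.23 (SE 0.24), 0.22 (0.40) and -0.77 (0.38), with edgeR adjusted p of 0.572, 0.754 and 0.193. Adamts1 turned to 0.07 without Control ovary 32 and Adamts4 to -0.50 without Aged ovary 34. Adamts5 passed at unadjusted p without Aged ovary 31 (-1.07) and without Aged+CF ovary 32 (-0.77), with edgeR adjusted p of 0.129 and 0.0903. Adamts9, Adamts15, Adamts8 and Adamts20, the other members of this role, ran from -0.25 to 0.58 and did not pass either. Of the remaining ADAMTS genes, Adamts7 and Adamts10 did not overlap between the groups, at -0.42 (SE 0.14, edgeR adjusted p = 0.0695) and -0.43 (0.13, adjusted p = 0.055). Adamts6, a relative of Adamts10, was at -1.03 (SE 0.36, unadjusted p = 0.0156, edgeR adjusted p = 0.0764). Adamts17 and Adamts18 did not pass, with -0.89 and 0.30.

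The TIMPs were all above 0 on average in Aged vs Control, and Timp3 was the clearest. Timp3 (ENSMUSG00000020044, chr10:86300372-86349506, plus strand), the TIMP that stays bound to the matrix and also blocks ADAMTS enzymes, had 363, 286, 337 and 315 CPM in the Control ovaries, 490.1, 487 and 470.0 CPM in the Aged ovaries and 407, 517 and 411 CPM in the Aged+CF ovaries. The 3 Aged ovaries were nearly equal and above all Control ovaries, and all Aged+CF ovaries were above Control as well. The difference had an edgeR adjusted p of 0.0139, but its log2 size of 0.57 (SE 0.12, 1.48-fold) was just under the 1.5-fold threshold of 0.58, so it was not called. It passed both thresholds when any of 7 ovaries was left out, with 0.62 without Aged ovary 34, and by DESeq2's Wald test. Luteal and endothelial markers rose in the same ovaries, 5 of 5 and 4 of 6 with edgeR's adjusted p. The luteal sums were 4137 to 6347 CPM for Control, 8029.8 to 16628 CPM for Aged and 7514.5 to 11597 CPM for Aged+CF, and the endothelial sums were 377 to 451 CPM, 512 to 680.4 CPM and 449 to 506 CPM in the same order. None of these markers was at 0 in all ovaries, and their part in the TIMP values was not tested. Timp2, which inhibits MMPs and also serves in the activation of Mmp2, had 399.6, 341, 398 and 408 CPM in the Control ovaries, 419.8, 309 and 720.3 CPM in the Aged ovaries and 449.5, 514 and 473 CPM in the Aged+CF ovaries. A single Aged ovary, 34, was the highest and another, 33, the lowest, and the log2 fold change of 0.32 (SE 0.23) was 0.58 without ovary 33 and -0.05 without ovary 34. Timp1, an inducible inhibitor that is secreted, had 66.9, 33.7, 48.0 and 43.2 CPM in the Control ovaries, 60.1, 99.2 and 34.8 CPM in the Aged ovaries and 70.5, 115 and 93.1 CPM in the Aged+CF ovaries, and the Aged ovaries ran from near the lowest Control value to above 2 of the 3 Aged+CF ovaries. Timp4, the least abundant, had 1.11, 2.74, 13.3 and 1.64 CPM in the Control ovaries, 4.47, 7.05 and 10.9 CPM in the Aged ovaries and 2.69, 10.1 and 2.16 CPM in the Aged+CF ovaries. Its highest Control value was in ovary 33, the one with 415 CPM of oviduct markers, and without that ovary its log2 fold change moved from 0.66 (SE 0.84) to 2.03. The part of oviduct tissue was not tested.

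TIMP genes are nested with synapsin genes in the mouse genome. In GENCODE M21, Timp1 overlaps Syn1, Timp3 overlaps Syn3 and Timp4 overlaps Syn2, each on the opposite strand, and Timp2 overlaps Cep295nl on its own strand. The limit on strand given for Mmp12 holds for the opposite-strand pairs too. For Timp2 and Cep295nl a strand setting would not separate reads where the genes overlap.

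Aged+CF vs Aged asks which genes differ in the aged ovary after CEFFE. No member passed with edgeR's adjusted p, and 1 of the 18956 genes tested did, 0.00528%. Without Aged ovary 34, 556 genes passed, and still no member. Of the 36 members, 6 had an unadjusted p under 0.05 at any fold, beside 16.3% of all genes tested, and with the fold threshold 3 were higher in Aged+CF (Mmp11, Adamts19, Adamts12) and 1 was lower (Mmp12), beside 3.91% and 4.05% of all genes tested. DESeq2's Wald test called 2 members at adjusted p, Mmp11 and Adamts19, beside 2.30% of all genes. The Aged+CF and Aged ovaries did not overlap for 5 members that were higher (Mmp11, Adamts2, Adamts12, Adamts14, Adamts19) and 1 that was lower (Mmp23), beside 10.2% and 8.39% of all genes tested. The median log2 fold changes were -0.23 for the MMPs, 0.27 for the ADAMTS genes, of which 12 of 18 were above 0, and -0.07 for the TIMPs, with -0.02 over all genes tested. Both comparisons so far share the Aged ovaries, so an Aged ovary that is high or low moves both in opposite directions, and the values of each are given side by side without a test of their likeness.

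Mmp11 went from 109.6 ± 35.0 CPM in Aged to 232 ± 43.8 CPM in Aged+CF, beside 209 ± 17.6 CPM in Control. The lowest Aged+CF ovary was above the highest Aged ovary, and the Aged+CF and Control ovaries overlapped. The log2 fold change was 1.08 (SE 0.22, unadjusted p = 0.000614, edgeR adjusted p = 0.15), against -0.93 for Aged vs Control and 0.15 for Aged+CF vs Control. Adamts19 went from 27.9 ± 12.2 CPM to 58.6 ± 6.14 CPM, with Control at 73.1 ± 4.73 CPM. Its log2 fold change was 1.07 (SE 0.27, unadjusted p = 0.00302, edgeR adjusted p = 0.169). Both values held at unadjusted p when any ovary was left out. Without Aged ovary 33, Mmp11 was at 0.87 and Adamts19 at 0.76.

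Adamts12, a relative of Adamts7 that cuts cartilage oligomeric matrix protein, had 32.4, 23.9, 35.5 and 33.8 CPM in the Control ovaries, 31.2, 13.9 and 25.2 CPM in the Aged ovaries and 34.5, 43.1 and 43.2 CPM in the Aged+CF ovaries. The Aged+CF ovaries were above all Aged ovaries, and 2 of them were above all Control ovaries. The log2 fold change was 0.78 (SE 0.26, unadjusted p = 0.0141, edgeR adjusted p = 0.215), and 0.51, under the fold threshold, without Aged ovary 33. Adamts2 was higher in every Aged+CF ovary than in every Aged ovary, by 0.40 on the log2 scale (SE 0.13, unadjusted p = 0.0111), a size below the fold threshold. Adamts16 differed by 0.69 (SE 0.34, unadjusted p = 0.0732), and by 0.85 without Aged+CF ovary 32, where it passed at unadjusted p (0.0464), and 2 of the 3 Aged+CF ovaries were close to the highest Aged ovary.

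Mmp12 was lower in Aged+CF, at 33.9 ± 10.0 CPM against 65.5 ± 44.2 CPM in Aged, and its size rested on Aged ovary 34. The groups overlapped, since Aged+CF ovary 32 had 45.1 CPM and the lower Aged ovaries 37.0 and 43.0 CPM. The log2 fold change was -0.95 (SE 0.41, unadjusted p = 0.0415, edgeR adjusted p = 0.289), and -0.25 without that ovary. The unadjusted p was also above 0.05 without Control ovary 31, 33 or 34 and without Aged+CF ovary 30 or 34, with log2 fold changes of -0.80 to -0.95. Of the 12 macrophage markers, 3 (Gpnmb, Lyz2 and Ctss) were lower in Aged+CF at unadjusted p, and none with edgeR's adjusted p. Of the 6 T and B cell markers, all 6 were lower at unadjusted p and 0 at adjusted p, with a median log2 fold change of -2.03. Compared with Aged, oocyte markers were higher in Aged+CF for 4 of 12 genes at unadjusted p and for 0 with edgeR's adjusted p, and their part in the values of Mmp11 and Adamts19 was not tested. The TIMPs did not pass, with log2 fold changes of 0.52 (SE 0.36) for Timp1, -0.01 (0.25) for Timp2, -0.12 (0.13) for Timp3 and -0.59 (0.90) for Timp4. Mmp2, Mmp9 and Mmp14 were at 0.22, -0.03 and 0.38 on the log2 scale, and Adamts1, Adamts4 and Adamts5 at 0.22, -0.04 and 0.77, none past either p threshold. Adamts4 had 0.71 without Aged ovary 34, with an unadjusted p of 0.0305 from edgeR. Without Aged ovary 31 or Aged+CF ovary 32, Adamts5 passed at unadjusted p with the fold threshold. Timp1 and Mmp19 did so without Aged ovary 33.

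Aged+CF vs Control asks where the treated aged ovary differs from the young ovary. No member passed with edgeR's adjusted p, and 34 genes of the whole table did, 0.179%. With the fold threshold and unadjusted p, Mmp12 and Timp1 were higher in Aged+CF and Adamts16 was lower, beside 3.33% and 4.36% of all genes, and DESeq2's Wald test called 1 member, Mmp12, at adjusted p, beside 2.79%. Mmp12 had a log2 fold change of 1.25 (SE 0.38, edgeR adjusted p = 0.193), with all 3 Aged+CF ovaries above all Control ovaries. With Aged ovary 34 left out of the fit that all 3 groups share, it passed with edgeR's adjusted p too (0.0265). Timp1 was at 0.95 (SE 0.33, unadjusted p = 0.017, edgeR adjusted p = 0.246), with 70.5, 115 and 93.1 CPM in Aged+CF, all above the highest Control value of 66.9 CPM. Adamts16 was at -0.94 (SE 0.32, unadjusted p = 0.0141, edgeR adjusted p = 0.237). At unadjusted p the call of Timp1 was lost without Aged+CF ovary 32 (0.77) and that of Adamts16 without Aged+CF ovary 30 or 32 (-0.77 each). Adamts2 and Timp3, both under the fold threshold as Mmp23 was, had unadjusted p of 0.000968 and 0.00317 with log2 fold changes of -0.56 and 0.45.

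Other genes of the system, a list of 54 activators, further inhibitors, related proteases and matrix proteoglycans, of which 48 were tested, were set beside the members. In Aged vs Control 3 rose and 3 fell with edgeR's adjusted p, beside 5.00% and 6.06% of all genes tested. The median log2 fold change of the 48 was 0.13. At unadjusted p 7 were higher and 4 lower, beside 8.79% and 9.44% of all genes tested. The 3 that rose encode lysosomal cathepsins, Ctsb, Ctsd and Ctss, with log2 fold changes of 0.76, 0.73 and 1.56, and Ctss is also among the macrophage markers. Versican (Vcan), the substrate shared by several ADAMTS enzymes, fell from 193 ± 6.80 CPM to 59.2 ± 26.7 CPM in Aged, a log2 difference of -1.71 (SE 0.26, edgeR adjusted p = 0.0055). In Aged+CF it was at 148 ± 24.7 CPM, 1.32 above Aged on the log2 scale (unadjusted p = 0.000553, edgeR adjusted p = 0.15). Serpine2, an inhibitor of plasminogen activators, fell by 1.39 on the log2 scale (edgeR adjusted p = 0.019), and Pcsk5, a convertase that trims protein precursors, fell by 0.61 (edgeR adjusted p = 0.0166). Furin, which activates Mmp11 and Mmp14, was at 0.01 (SE 0.18), and the membrane-bound MMP inhibitor Reck was at -0.17 (0.31). In Aged+CF vs Aged none of the 48 passed with edgeR's adjusted p. At unadjusted p Vcan was higher and A2m, Adamtsl2, Adamtsl4 and Ctss were lower, beside 3.91% and 4.05% of all genes tested.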

How the data were processed

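Ovaries were grouped by their labels, with replicate numbers from the titles. The authors' deposited table holds raw counts and FPKM, which equal the count over gene length and column total in all 276532 values above 0 within a relative tolerance of 0.001. The submitters' processing notes name TopHat, Cufflinks 2.1.1 and GRCm38.p4, while the counting tool, annotation and strand setting are not given in the sources used here. Counts were filtered with edgeR 4.0.16 (R 4.3.3), scaled by TMM and fitted to all 10 ovaries, and the 3 comparisons were tested with the two-sided quasi-likelihood F test, whose log2 fold change over the root of F gave the standard error. A gene was called at a fold of at least 1.5 and p under 0.05, adjusted by the Benjamini-Hochberg method as in the study's methods or unadjusted as in its results. The ovaries are separate samples by their titles, and no library pair of a group was a duplicate, with chi-square per gene of at least 17.0 between them. The fit was tested on simulated data. Positions came from GENCODE M21. Members and lists were chosen with earlier results of these data known. The genes described by ovary are those called at adjusted p in any comparison or at unadjusted p in Aged+CF vs Aged, the TIMPs, Mmp2, Mmp9, Mmp12, Mmp14, Mmp19, Adamts1, Adamts4 and Adamts5. Other genes are named to account for all members. Alternatives were no filter, DESeq2 size factors, the Wald test of DESeq2 1.42.0, only the 2 groups compared, a replicate block and leaving out each ovary.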

Additional observations from a re-analysis of the deposited data

Results flagged for a closer look

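Among the 36 tested genes, the 4 Control ovaries held a value far from the rest, by Dixon's ratio of gap to range, for 4 genes, against about 1 in 20 groups by chance. The ratio was 0.902 for Mmp17 (ovary 31 the lowest, at 16.7 CPM against 20.3 to 20.6 CPM), 0.949 for Mmp23 (ovary 34 the lowest, at 48.9 CPM against 55.2 to 55.6 CPM), 0.845 for Timp2 (ovary 32 the lowest, at 341 CPM against 398 to 408 CPM) and 0.866 for Timp4 (ovary 33 the highest, at 13.3 CPM against 1.11 to 2.74 CPM). The ovaries differed from gene to gene.

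Of the members too low to test, a pair had reads above the level in Control. Mmp7 had 49 reads in Aged ovary 34, against at most 3 in a Control ovary. Mmp10, a stromelysin, had 11 reads in Aged+CF ovary 32, against 0 in every Control ovary.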

How the results depend on the processing

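In Aged vs Control, 5 members and 2096 of all genes passed with edgeR's adjusted p. DESeq2's Wald test called 8 members and 2761 genes, and leaving out an ovary gave 4 to 8 members and 1081 to 3112 genes. At unadjusted p leaving out an ovary gave 7 to 12 members and 3041 to 4282 genes, beside 7 and 3456 with all ovaries. In Aged+CF vs Aged, 0 members passed at adjusted p by edgeR (1 gene of all) and 2 by DESeq2's Wald test (434 genes). At unadjusted p leaving out an ovary there gave 3 to 8 members and 1170 to 2360 genes, beside 4 and 1509 with all ovaries. In Aged+CF vs Control, 0 passed at adjusted p (34 genes of all), 1 by DESeq2's Wald test (528 genes), 1 with only the 2 groups in the fit (487 genes), and 0 to 1 when an ovary was left out (7 to 348 genes). The replicate numbers do not mark a shared animal, and the main fit did not pair the ovaries. Deviations of same-numbered ovaries correlated between -0.185 and 0.153. Differently numbered ovaries were not correlated for reference, so a batch shared by number was not tested. With the replicate block, 0 members passed in Aged vs Control at adjusted p (80 genes of the whole table did). At unadjusted p 10 members and 2980 genes passed there. In Aged+CF vs Control 1 member and 1311 genes passed at unadjusted p, beside 3 and 1457 without the block. Adamts4 in Aged+CF vs Aged had a log2 fold change of -0.04 and from -0.38 to 0.71 when an ovary was left out, with 0.71 without Aged ovary 34. Of 765 further fold changes of the 17 genes described by ovary, 699 counted as the same. These kept their direction and their call at unadjusted p, or stayed uncalled and moved by less than the SE with all ovaries. Some settings changed only the filter or scaling, or left out an ovary outside the comparison, and could move a fold change little. The count of 699 includes them and so does not measure stability. Groups held 3 or 4 ovaries, and Aged ovaries 33 and 34 stood apart. Fold changes of Mmp2, Mmp9, Mmp12, Mmp14, Mmp19, Timp1, Timp2, Timp4, Adamts1, Adamts4, Adamts5 and Adamts12 turn on a single ovary in at least 1 comparison. Adamts12 in Aged vs Control went from -0.42 to -0.13 without Aged ovary 33. The causes were not tested. Counts near 0 limit the 10 untested members. RNA levels do not give protein.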
